A study of Mus musculus with 10 samples.

Results

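The immunity-related GTPases described here are the mouse genes Irgm1, Irgm2, Igtp, Iigp1, Tgtp1, Tgtp2 and Ifi47, chosen by gene symbol. All 7 had a row among the 22329 genes of the expression table, and all 7 passed the filter on low values, as did 12497 genes in all. Transcripts were measured by polyA RNA sequencing in tumours grown under the skin of C57BL6/J mice from B16F10, an established mouse melanoma cell line. The 5 cytokine mRNA tumours (tumours 6 to 10) received 1 injection into the tumour of 80 µg mRNA, made up of 20 µg each of mRNAs for murine single chain IL-12, IL-15sushi, GM-CSF and IFNalpha. The 5 luciferase mRNA tumours (tumours 1 to 5) received 80 µg of mRNA for luciferase, an enzyme with no cytokine function, and every tumour was taken 7 days after the injection. No untreated tumour was analysed here, so both groups share an mRNA injection, and neither the sex nor the age of the mice is stated by the labels. The study's design gives 5 samples per group, but every luciferase title reads Tumor_1 and every cytokine title Tumor_2, so that the libraries come from separate mice is taken from the design alone. The p-values then measure the spread between these samples, which may be technical.

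Immunity-related GTPases are large interferon-inducible proteins that defend mouse cells against parasites and bacteria living inside vacuoles. The effector proteins load onto the vacuole membrane and disrupt it, while the Irgm proteins, which carry a methionine in place of a lysine in the nucleotide-binding loop, sit on the cell's own membranes and hold the effectors inactive there. The regulators are encoded by Irgm1, Irgm2 and Igtp (also called Irgm3), and the effectors by Iigp1 (Irga6), Tgtp1 and Tgtp2 (Irgb6) and Ifi47 (Irgd). Transcription of these genes is known to rise after interferon gamma and also after type I interferon, through the promoter elements called GAS and ISRE.

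The start of these genes is shown as background, and no link between its letters and the changes below was tested. Promoter windows of 300 bases (250 before and 50 from the annotated start, RefSeq, GRCm38.p6) were matched by symbol for 6 of the 7 genes, all on chromosome 11. They were searched on both strands for the ISRE core, GAAA followed by any 2 bases and GAAA again, and for the GAS letters TTCNNNGAA. The core was present in 5 of the 6, and both were present in 4. Stretches of 60 bases, read 5′ to 3′ on the gene's strand and lined up on the ISRE core, are given with the matches in capitals:
Irgm1: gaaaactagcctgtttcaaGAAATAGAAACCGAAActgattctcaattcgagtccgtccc
Irgm2: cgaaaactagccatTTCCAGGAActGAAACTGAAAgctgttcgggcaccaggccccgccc
Igtp: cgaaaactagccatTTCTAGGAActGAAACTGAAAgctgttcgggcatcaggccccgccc
Tgtp1: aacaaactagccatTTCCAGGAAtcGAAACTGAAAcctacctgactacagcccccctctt
Tgtp2: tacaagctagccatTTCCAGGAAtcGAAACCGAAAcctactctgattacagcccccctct
These lie at chr11:48871410-48871469 (minus strand) for Irgm1, chr11:58214888-58214947 (plus) for Irgm2, chr11:58199497-58199556 (plus) for Igtp, chr11:48992289-48992348 (minus) for Tgtp1 and chr11:49064248-49064307 (minus) for Tgtp2. In the last 4 of these lines the GAS letters stand before the ISRE core, while Irgm1 holds 2 overlapping ISRE cores and no GAS match. The ISRE core began 64 bases before the start in Irgm2, 34 in Igtp, 77 in Tgtp1 and 70 in Tgtp2. The Irgm2 and Igtp stretches were the same at 58 of 60 bases, and those of Tgtp1 and Tgtp2 at 44 of 60 without gaps. Ifi47 had neither match in its window, which says only that these letters are not there. Of all 32851 RefSeq windows of this length, 3.44% held the ISRE core, 8.3% held the GAS letters and 0.454% held both.

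The libraries differed in ways that touch the results. Mitochondrial genes took 4.44 to 19.2% of TPM in cytokine mRNA tumours and 16.2 to 27.9% in luciferase mRNA tumours. Cytokine tumour 7 stood apart: 279 of 1536 chemosensory receptor rows, which tumours should hardly use, were above 0 in it, against 14 to 43 in the other 9 tumours. The 8 melanocyte markers (Tyr, Tyrp1, Dct, Pmel, Mlana, Mitf, Sox10, Slc45a2), which define the labelled melanoma, summed to 41.9 TPM in tumour 7, against 4117 to 16831 TPM in the other cytokine mRNA tumours and 2604 to 16414 TPM in luciferase mRNA tumours. TPM, the unit of the deposited table, is a share of each library corrected for transcript length, so it keeps no sequencing depth, and levels of different genes can be compared.

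The 3 regulators and Ifi47 rose in the cytokine mRNA tumours, and the effectors Iigp1, Tgtp1 and Tgtp2 did not pass the test. This was not a split by size of change. The log2 changes of Iigp1 and Tgtp1, 2.62 and 2.74, were larger than those of Irgm1 and Ifi47, 1.86 and 1.89. Their SEs were also larger, 1.11 and 0.94 against 0.50 and 0.48. With limma on log2(TPM + 1) and Benjamini-Hochberg adjustment over all 12497 genes tested, 4 of the 7 genes rose at an adjusted p under 0.05 and none fell, where 7.41% of all genes tested rose, 3.02% fell and 10.4% did either. The share of all genes that rose was 13.2% without cytokine tumour 10 and 12.8% with library quality weights, where 4 and 5 of the 7 genes were called. It was 2.57% without cytokine tumour 6 and 3.86% with no filter on low values, where 0 and 1 of the 7 were called. In 3 of the 7, Irgm2, Igtp and Ifi47, all 5 cytokine mRNA values lay above all 5 luciferase mRNA values, as in 5.45% of all genes tested. The median log2 change of the 7 genes was 2.62, against -0.18 over all genes tested. In such bulk samples, fewer cells of a type and less RNA per cell cannot be told apart.

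**Figure D1:**
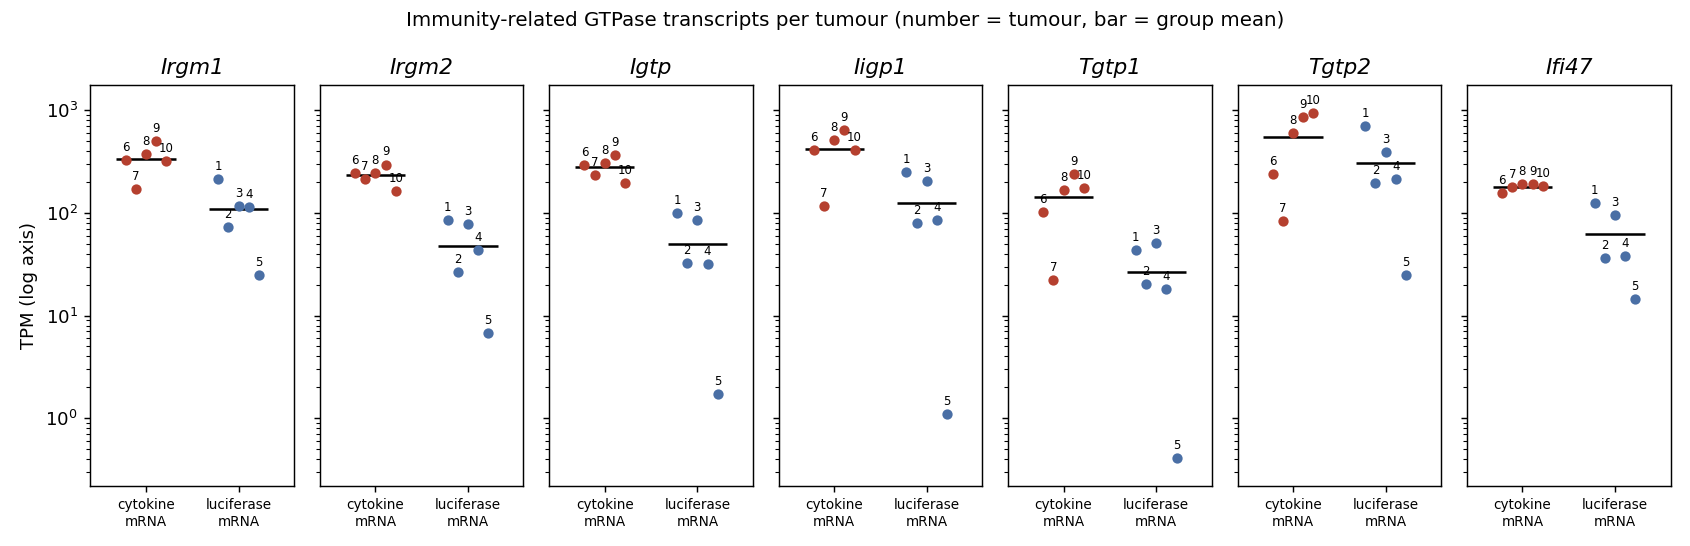
TPM of the 7 genes in each tumour on a log axis, with a point per tumour labelled by its number and a bar at the group mean (5 tumours per group). Luciferase tumour 5 is the lowest luciferase mRNA tumour in every panel, and cytokine tumour 7 is the lowest cytokine mRNA tumour in the panels of Irgm1, Iigp1, Tgtp1 and Tgtp2.

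Irgm2, a regulator that sits on Golgi and vacuole membranes, was at 243, 212, 245, 297 and 164 TPM in cytokine mRNA tumours 6 to 10, against 85.6, 26.6, 78.3, 43.1 and 6.70 TPM in luciferase mRNA tumours 1 to 5. The lowest cytokine mRNA value, in tumour 10, was above the highest luciferase mRNA value, in tumour 1. Irgm2 rose by 2.65 ± 0.56 (SE) on the log2(TPM + 1) scale, with a limma adjusted p of 0.0181, and its means were 232 ± 48.7 TPM in cytokine mRNA and 48.1 ± 33.6 TPM in luciferase mRNA tumours (SD, n = 5 each). This call was lost without cytokine tumour 6 (limma adjusted p = 0.0535) and held with any other single tumour left out.

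Igtp, the gene of Irgm3, a regulator found on the endoplasmic reticulum and lipid droplets, was at 296, 234, 305, 367 and 194 TPM in cytokine mRNA tumours 6 to 10, against 99.6, 32.8, 85.5, 31.6 and 1.72 TPM in luciferase mRNA tumours 1 to 5. The groups did not overlap, and luciferase tumour 5 was far below the rest of its group. Igtp rose by 3.17 ± 0.80 (SE) on the log2 scale (limma adjusted p = 0.0320), with means of 279 ± 66.9 TPM in cytokine mRNA and 50.2 ± 40.9 TPM in luciferase mRNA tumours (SD, n = 5 each). By this change it ranked 183 among the 12497 genes tested, the highest place of the 7. Without luciferase tumour 5 the log2 change of Igtp was 2.30 ± 0.38 (SE; limma adjusted p = 0.0210). Igtp was no longer called without any 1 of cytokine tumours 6, 7, 8 and 9 (limma adjusted p = 0.0799, 0.0533, 0.0684 and 0.0666) or luciferase tumours 2 and 4 (0.0657 and 0.0674).

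Irgm1, the regulator needed in mice to control mycobacteria and to keep stem cells and lymphocytes alive under interferon, was at 331, 172, 376, 499 and 320 TPM in cytokine mRNA tumours 6 to 10, against 215, 72.6, 118, 114 and 24.6 TPM in luciferase mRNA tumours 1 to 5. Cytokine tumour 7 lay below luciferase tumour 1, and the other 4 cytokine mRNA tumours lay above the whole luciferase mRNA group. Irgm1 rose by 1.86 ± 0.50 (SE) on the log2 scale (limma adjusted p = 0.0386), with means of 340 ± 118 TPM in cytokine mRNA and 109 ± 70.2 TPM in luciferase mRNA tumours (SD, n = 5 each). The call was lost without any 1 of cytokine tumours 6, 8 and 9 (limma adjusted p = 0.0908, 0.0820 and 0.0817) or luciferase tumours 2, 3, 4 and 5 (0.0874, 0.0623, 0.0683 and 0.0562).

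Ifi47, the gene of the effector Irgd, was at 158, 179, 190, 191 and 183 TPM in cytokine mRNA tumours 6 to 10, against 125, 36.5, 96.3, 38.0 and 14.5 TPM in luciferase mRNA tumours 1 to 5. Its cytokine mRNA values were the most even of the 7 genes, with a highest value 1.21 times the lowest, where the same ratio was 8.62 among luciferase mRNA tumours. Ifi47 rose by 1.89 ± 0.48 (SE) on the log2 scale (limma adjusted p = 0.0314), with means of 180 ± 13.3 TPM in cytokine mRNA and 62.1 ± 46.5 TPM in luciferase mRNA tumours (SD, n = 5 each). Its call was lost without any 1 of cytokine tumours 6, 7, 8 and 9 (limma adjusted p = 0.0703, 0.0541, 0.0676 and 0.0637) or luciferase tumours 2 and 4 (0.0766 and 0.0751). Ifi47 shares 111 exon bases with Olfr56 on the same strand in GENCODE M21. Without cytokine tumours 6 and 7 together, only 20 of all 12497 genes tested were called, and none of the 4 calls held. The log2 changes were then 2.66 in Irgm2, 3.20 in Igtp, 2.14 in Irgm1 and 1.95 in Ifi47 (limma adjusted p = 0.0959, 0.130, 0.0966 and 0.118).

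Iigp1 encodes Irga6, the best studied effector, which loads early onto the vacuole of Toxoplasma gondii. It was at 412, 118, 518, 638 and 415 TPM in cytokine mRNA tumours 6 to 10, against 253, 79.7, 205, 86.2 and 1.11 TPM in luciferase mRNA tumours 1 to 5. Cytokine tumour 7 fell within the luciferase mRNA range, and the other 4 lay above it. The log2 change was 2.62 ± 1.11 (SE), with an SE larger than that of any other of the 7 genes, and it did not pass the test (limma adjusted p = 0.139). Without luciferase tumour 5, whose value was 1.11 TPM, the log2 change of Iigp1 was 1.41 ± 0.52 (SE; limma adjusted p = 0.135). Without cytokine tumour 7 the means of Iigp1 were 496 TPM in cytokine mRNA and 125 TPM in luciferase mRNA tumours. The groups of Iigp1, Irgm1 and Tgtp1 then did not overlap. This follows from leaving out the only overlapping cytokine mRNA tumour, so it adds no support. In the fit without cytokine tumour 7, Iigp1 and Tgtp1 still did not pass (limma adjusted p = 0.135 and 0.0517).

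Tgtp1 and Tgtp2 encode near-identical copies of Irgb6, an effector that also loads early onto vacuoles. In GENCODE M21 transcripts, 79.4% of the 50-base words of Tgtp1 are also in Tgtp2 and 89.8% of those of Tgtp2 are in Tgtp1, so the counting could have moved reads between them, and each single value is uncertain. Tgtp1 was at 103, 22.1, 167, 243 and 176 TPM in cytokine mRNA tumours 6 to 10, against 43.2, 20.1, 50.8, 18.2 and 0.408 TPM in luciferase mRNA tumours 1 to 5. Only cytokine tumour 7 overlapped the luciferase mRNA range, and the log2 change of 2.74 ± 0.94 (SE) did not pass the test (limma adjusted p = 0.0819). It passed after quantile normalization (0.0469) and with library quality weights (0.0126). Without luciferase tumour 5, the log2 change of Tgtp1 was 1.85 ± 0.64 (SE; limma adjusted p = 0.115).

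Tgtp2 was at 242, 83.6, 606, 869 and 953 TPM in cytokine mRNA tumours 6 to 10, against 706, 197, 393, 214 and 24.7 TPM in luciferase mRNA tumours 1 to 5. The ranges overlapped through most of their length, with cytokine tumours 6, 7 and 8 among the luciferase mRNA values and luciferase tumour 1 above these 3 cytokine mRNA tumours. Its log2 change was 1.02 ± 0.88 (SE; limma adjusted p = 0.441), the smallest of the 7 genes, and was 0.28 without luciferase tumour 5 (limma adjusted p = 0.811). The sum of Tgtp1 and Tgtp2, which depends less on how reads were split between them but not wholly so, since TPM is corrected for the length of each copy, was 344, 106, 773, 1111 and 1129 TPM in cytokine mRNA tumours 6 to 10, against 749, 217, 444, 233 and 25.1 TPM in luciferase mRNA tumours 1 to 5. That sum changed by 1.27 on the log2 scale, also short of the threshold (limma adjusted p = 0.341).

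The ratio of the copies did not overlap between the groups. Tgtp2 was 2.36, 3.78, 3.62, 3.58 and 5.41 times Tgtp1 in cytokine mRNA tumours 6 to 10, against 16.3, 9.79, 7.72, 11.8 and 60.6 times in luciferase mRNA tumours 1 to 5. Every cytokine mRNA tumour had a lower ratio than every luciferase mRNA tumour. The ratio of 60.6 in luciferase tumour 5 rests on a Tgtp1 value of only 0.408 TPM. This ratio was chosen after its values were seen and carries no test, and the division of shared reads between the copies was not tested. Gm12185, a family gene that shares 223 exon bases with Tgtp1 on the same strand in GENCODE M21, was higher in all cytokine mRNA tumours, as given below.

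**Figure D2:**
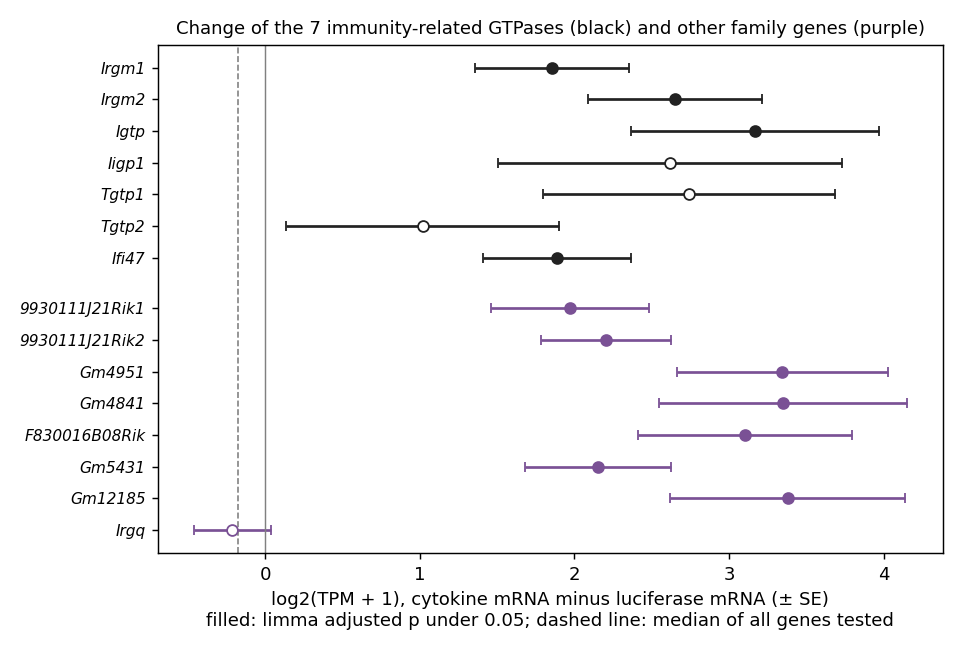
Log2(TPM + 1) in cytokine mRNA minus luciferase mRNA tumours (horizontal axis, ± SE, 5 tumours per group) for the 7 genes in black and for other family genes in purple. Filled points passed limma at an adjusted p under 0.05, and the dashed line is the median of all genes tested, -0.18. Irgq and Tgtp2 have the smallest changes, -0.21 and 1.02.

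Summed over the 7 genes, the TPM was 1785, 1021, 2406, 3104 and 2406 in cytokine mRNA tumours 6 to 10, against 1527, 465, 1026, 546 and 73.8 in luciferase mRNA tumours 1 to 5. Cytokine tumour 7 overlapped luciferase tumours 1 and 3, and the other 4 cytokine mRNA tumours lay above all 5. The regulators made up 28.2 to 60.5% of this sum in cytokine mRNA tumours (median 38.5%) and 26.2 to 44.8% in luciferase mRNA tumours (median 28.4%). The highest regulator share was in cytokine tumour 7, where all effectors but Ifi47 were at their lowest of the group, and the next in cytokine tumour 6, with 48.8%.

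**Figure D3:**
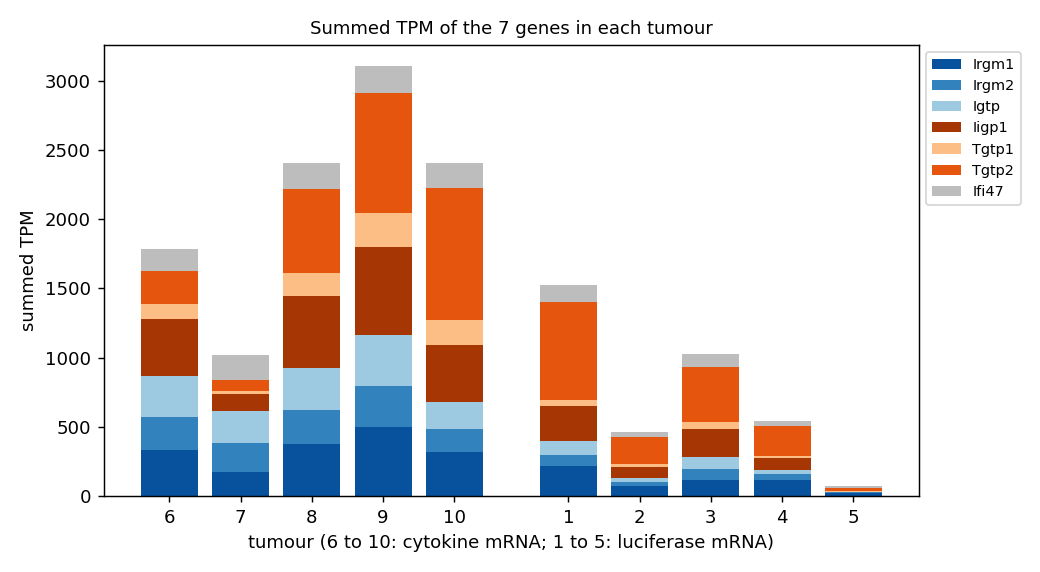
TPM of the 7 genes stacked for each tumour (vertical axis, summed TPM from 0), cytokine mRNA tumours 6 to 10 on the left and luciferase mRNA tumours 1 to 5 on the right. The tallest bar is cytokine tumour 9, at 3104 TPM, and the shortest luciferase tumour 5, at 73.8 TPM; Tgtp2 makes up 8.19 to 39.6% of a cytokine mRNA bar and 33.5 to 46.2% of a luciferase mRNA bar.

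The order of the genes within a tumour shifted too. By group mean, the order in cytokine mRNA tumours was Tgtp2 (551 TPM), Iigp1 (420), Irgm1 (340), Igtp (279), Irgm2 (232), Ifi47 (180) and Tgtp1 (142). In luciferase mRNA tumours it was Tgtp2 (307 TPM), Iigp1 (125), Irgm1 (109), Ifi47 (62.1), Igtp (50.2), Irgm2 (48.1) and Tgtp1 (26.5), and each gene's range overlapped that of its neighbour in both orders. Igtp was above Ifi47 in 5 of 5 cytokine mRNA tumours and in 0 of 5 luciferase mRNA tumours. Igtp was also above Irgm2 in 5 of 5 cytokine mRNA tumours, with an Irgm2 to Igtp ratio between 0.805 and 0.910, and in 3 of 5 luciferase mRNA tumours, where the ratio was 0.811 to 3.90. Irgm2 and Igtp lie in tandem and share 162 exon bases on the same strand in GENCODE M21, so some reads could count for either.

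Across the 10 tumours, 6 of the 7 genes formed 3 pairs of nearest profiles. With each gene centred on its own mean log2(TPM + 1), the mean absolute difference per tumour was 0.34 between Irgm1 and Ifi47, 0.39 between Irgm2 and Igtp and 0.46 between Iigp1 and Tgtp1, and in each pair both genes were each other's nearest among the 7. Tgtp2 was nearest to Irgm1, at 0.75. The farthest were Igtp and Tgtp2, at 1.21. The genes outside the family nearest to the mean profile of the 7 were Psmb8, a subunit of the immunoproteasome, at 0.33, Apol9b (0.38), Batf2, a transcription factor induced by interferon gamma (0.38), the guanylate-binding protein gene Gbp7 (0.38), Apol9a (0.39) and the peptide transporter gene Tap1 (0.40). The median over all genes tested was 1.35, and the 7 genes themselves lay at 0.35 to 0.72 from their mean profile. Of these 6 genes, Apol9b, Gbp7 and Tap1 rose (limma adjusted p = 0.0169, 0.0260 and 0.0258), and Psmb8, Batf2 and Apol9a did not pass (0.0695, 0.0824 and 0.0764).

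Other immunity-related GTPase genes were also higher in the cytokine mRNA tumours. Of 8 tested, 7 rose and none fell (7.41% of all genes tested rose), and in all 7 the groups did not overlap. Gm12185 averaged 111 ± 40.9 TPM in cytokine mRNA and 14.6 ± 10.4 TPM in luciferase mRNA tumours (SD, n = 5 each), with ranges of 74.9 to 175 TPM in cytokine mRNA and 0 to 29.3 TPM in luciferase mRNA tumours. The log2 change of Gm12185 was 3.38 ± 0.76 (SE), with 0.0214 as its limma adjusted p. Gm4841, Gm4951 and F830016B08Rik, listed by RefSeq as Ifgga3, Ifgga2 and Ifgga4, rose by 3.35, 3.35 and 3.11. In Gm4951, for instance, the range was 70.3 to 158 TPM in cytokine mRNA and 0.496 to 32.1 TPM in luciferase mRNA tumours. Irgq was at 8.0 ± 1.16 TPM in cytokine mRNA and 9.69 ± 3.11 TPM in luciferase mRNA tumours (SD, n = 5 each; limma adjusted p = 0.574). Of the 7 calls, 5 were left without cytokine tumour 7, 5 without luciferase tumour 5 and 0 without cytokine tumours 6 and 7 together. In these fits 860, 548 and 20 of all 12497 genes tested were called.

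The interferon gamma pathway was described from its ligand inward. Of 9 genes of interferon and IL-12 ligands and receptors tested, 6 rose and none fell (7.41% of all genes tested rose). Ifng, the interferon gamma gene, was at 57.6, 114, 36.6, 23.7 and 8.81 TPM in cytokine mRNA tumours 6 to 10, against 2.58, 2.79, 2.56, 0 and 0 TPM in luciferase mRNA tumours 1 to 5 (log2 change 4.06 ± 0.66, SE; limma adjusted p = 0.0107). Both luciferase tumours in which Ifng was listed at 0, tumours 4 and 5, had immunity-related GTPase transcripts, 546 and 73.8 TPM in sum. The sum of tumour 5 was the lowest of all tumours. Depth is unknown, so a listed 0 does not show that Ifng was absent. Whether the GTPase levels depended on Ifng was not tested. Ifngr1, the ligand-binding receptor chain, rose by 2.24, and Il12rb2 and Il18r1, receptor chains of IL-12 and IL-18, by 3.52 and 3.45. Ifngr2, the signalling chain of the interferon gamma receptor, was at 34.7 ± 10.9 TPM in cytokine mRNA and 40.1 ± 6.75 TPM in luciferase mRNA tumours (SD, n = 5 each; limma adjusted p = 0.509). The count of 6 was 4 without cytokine tumour 7, 1 without luciferase tumour 5 and 0 without cytokine tumours 6 and 7, fits in which 860, 548 and 20 of all 12497 genes were called.

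Of 10 kinases and transcription factors of interferon signalling, 5 rose and none fell (7.41% of all genes tested rose). Stat2, Irf1 and Irf7, transcription factors of the interferon response, rose by 2.45, 2.32 and 2.26 on the log2 scale (limma adjusted p = 0.00961, 0.0160 and 0.0120). The kinase genes Jak1 and Jak2 had changes of 1.06 and 0.68 that did not pass (limma adjusted p = 0.0711 and 0.106). Of 7 inhibitor genes, Usp18 and Socs1 rose, by 2.43 and 2.06, and none fell. The count of inhibitors was 1 without cytokine tumour 7, 1 without luciferase tumour 5 and 5 without cytokine tumour 10, and without cytokine tumours 6 and 7 both counts were 0. Over all 12497 genes tested, 860, 548, 3238 and 20 were called in these fits.

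Genes of proteins that act with the GTPases at the vacuole were counted by family, with no test between families. Guanylate-binding proteins, which act beside the GTPases on vacuoles, rose in 11 of 11 genes tested, where 7.41% of all genes tested rose. In Gbp8, Gbp5, Gbp2b and Gbp4 the log2 changes were 4.47, 4.14, 4.09 and 4.06. Without cytokine tumours 6 and 7, 2 of the 11 were called, among 20 of all 12497 genes tested. The Atg8 conjugation genes, needed to direct GTPases to vacuoles, passed in 0 of 11 tested with limma, and 0 had an unadjusted p under 0.05. Over all genes tested, 7.41% rose and 10.4% were called in either direction. The 0 of 11 called is near these shares and shows no lack of calls particular to this family. An unadjusted p under 0.05 was far more common: Iigp1, with an unadjusted limma p of 0.0376, ranked 3379 by p among the 12497 genes tested. Whether the 0 of 11 at the unadjusted threshold differs from all genes was not tested. Gabarap, the most abundant of them, was at 570 ± 185 TPM in cytokine mRNA and 425 ± 31.2 TPM in luciferase mRNA tumours (SD, n = 5 each; limma adjusted p = 0.271), and Gabarapl1 was at 87.0 ± 56.6 TPM in cytokine mRNA and 102 ± 24.9 TPM in luciferase mRNA tumours. Of 8 ubiquitin and adaptor genes, 1 rose: Trim21, a ubiquitin ligase, by 1.59 (limma adjusted p = 0.0311, and not called without luciferase tumour 5). The 1 of 8 that rose is also near the share of all genes. Of these 8 genes, 3 had an unadjusted p under 0.05 and 2 were higher without overlap, as were 5.45% of all genes tested. None of 14 reference genes passed with limma, 5 had an unadjusted p under 0.05, and their median change was -0.57. Unadjusted p-values under 0.05 were common over all genes tested, as the rank of Iigp1 given above shows. The unadjusted counts of 3 of 8 and 5 of 14 are therefore not read as a change particular to either list. Actb and Gapdh, the most abundant, changed by -0.19 and -1.51 (limma adjusted p = 0.722 and 0.174). Of the 14, 1 was called without cytokine tumour 7 and 4 without cytokine tumour 10. Over all 12497 genes tested, 860 and 3238 were called in these fits, so 4 of 14 is near the share of all genes.

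Immune cell markers moved with the comparison, in which 7.41% of all genes tested rose. All 5 pan-leukocyte markers (Ptprc, Coro1a, Laptm5, Cd53, Cd52) rose, and their sum was 463 to 4574 TPM in cytokine mRNA and 59.6 to 421 TPM in luciferase mRNA tumours. Of 10 macrophage and monocyte markers 9 rose, with sums of 635 to 14381 TPM in cytokine mRNA and 128 to 398 TPM in luciferase mRNA tumours, and none of the 10 was at 0 throughout a group. Of 7 T cell markers, 5 were tested and 4 rose, with sums of 57.1 to 3462 TPM in cytokine mRNA and 3.83 to 43.3 TPM in luciferase mRNA tumours. Of 6 neutrophil markers, 2 were tested and both rose, and S100a9, Retnlg and Ly6g were listed at 0 in all luciferase mRNA tumours. All 5 cytotoxic lymphocyte and NK markers tested rose (7 listed), with sums of 47.1 to 746 TPM in cytokine mRNA and 1.24 to 22.1 TPM in luciferase mRNA tumours, as did 2 of 4 dendritic cell markers tested. None of 8 melanocyte, 5 endothelial, 5 fibroblast, 3 skeletal muscle and 1 B cell markers tested passed with limma or had an unadjusted p under 0.05. No keratinocyte marker could be tested. Over all genes tested, 10.4% were called in either direction, and an unadjusted p under 0.05 was more common. Iigp1, with an unadjusted limma p of 0.0376, ranked 3379 by p among the 12497 genes tested. Whether these markers differ from all genes in this was not tested. The highest pan-leukocyte, macrophage and monocyte, T cell, and cytotoxic lymphocyte and NK sums were all in cytokine tumour 7, the library that stood apart above. Marker counts with tumours left out are not reported here, and without cytokine tumours 6 and 7 only 20 of all 12497 genes tested were called. The part of the marked cell types in the GTPase results was not tested.

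Within the cytokine mRNA group, the tumour with the most leukocyte transcripts was not the one with the most GTPase transcripts. Cytokine tumour 7 had the highest pan-leukocyte sum, 4574 TPM, the highest Ifng, 114 TPM, and the lowest GTPase sum of its group. Cytokine tumour 10 had the lowest pan-leukocyte sum of its group, 463 TPM, and the lowest Ifng, 8.81 TPM, while its GTPase sum was 2406 TPM, as in tumour 8, whose pan-leukocyte sum was 1949 TPM. Beside luciferase tumour 1, whose pan-leukocyte sum was 421 TPM, cytokine tumour 10 had 164 against 85.6 TPM of Irgm2, 194 against 99.6 TPM of Igtp and 953 against 706 TPM of Tgtp2. The pair was not matched otherwise. Cytokine tumour 10 had 16831 against 2604 TPM of melanocyte markers, 635 against 398 TPM of macrophage and monocyte markers and 150 against 661 TPM of fibroblast markers. What set the GTPase values of this pair apart was not tested. Among luciferase mRNA tumours, tumour 5 had the lowest pan-leukocyte sum, 59.6 TPM, and the lowest value of each of the 7 genes. The pan-leukocyte sums of luciferase mRNA tumours 1 to 5 were 421, 194, 324, 195 and 59.6 TPM. They put these 5 tumours in the same order as their GTPase sums, with tumours 2 and 4 nearly tied. The T cell sums gave the same order. Those of macrophages and monocytes, cytotoxic lymphocytes and NK cells, dendritic cells, neutrophils and B cells gave other orders. These are values of single tumours, with no test.

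**Figure D4:**
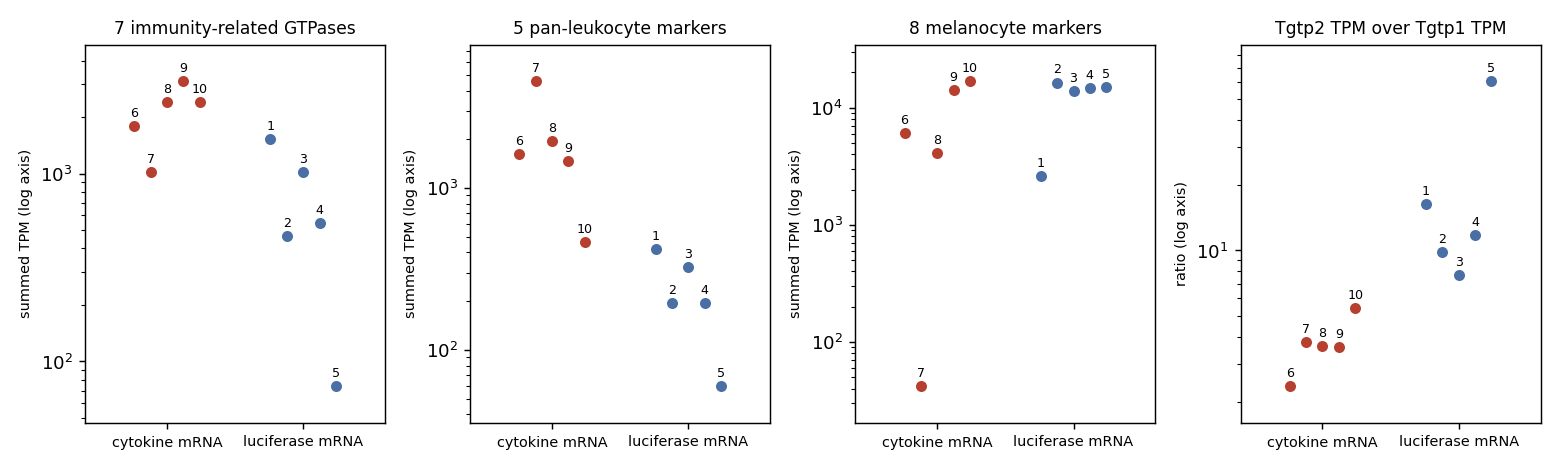
From left to right, summed TPM of the 7 GTPases, of 5 pan-leukocyte markers and of 8 melanocyte markers, and the ratio of Tgtp2 to Tgtp1, per tumour on log axes, with each point labelled by its tumour number. Cytokine tumour 7 is highest for leukocyte markers (4574 TPM), lowest for melanocyte markers (41.9 TPM) and lowest of its group for the GTPases (1021 TPM); the ratio is 2.36 to 5.41 in cytokine mRNA and 7.72 to 60.6 in luciferase mRNA tumours.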

How the data were processed

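The authors deposited 1 table of TPM with a row per gene symbol and a column per tumour, each column scaled to the same total. Per the labels' protocols, polyA RNA was made into stranded libraries with NuGEN methods. STAR is the only tool and GRCh38, a human build, the only genome listed in the submitters' processing notes, although samples and symbols are mouse. Neither labels nor headers name the annotation or the counting method. Depth cannot be read from TPM, so no counting interval is printed.

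Columns were matched to tumours by title. A gene was tested where 5 or more tumours had 1 TPM or more, on log2(TPM + 1) (pseudocount 1) with limma 3.58.1 in R 4.3.3 (eBayes with a trend, 2-sided), adjusted over all 12497 genes tested and called at an adjusted p under 0.05. The step was tested on simulated data. The 7 genes, the gene lists and the alternatives were chosen with earlier results of these data known. From each list, up to 4 called genes were named by size of change, failing which the 2 of highest mean TPM, and also the 6 genes nearest to the mean profile; the others named were chosen after their values were seen. Some listed genes are not analysed or not reported here.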

Additional observations from a re-analysis of the deposited data

Results flagged for a closer look

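In 3 of the 14 gene and group combinations, the lowest tumour lay far below the other 4 on the log2(TPM + 1) scale, by a gap above Dixon's limit for 5 values, as a share of the group's whole range. Chance flags about 1 in 20 groups. Cytokine tumour 7 stood apart for Iigp1, with a gap of 0.740 of the range. Luciferase tumour 5 stood apart for Iigp1, with 0.761, and for Tgtp1, with 0.724. The 7 genes share tumours, so these are not separate events.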

How the results depend on the processing

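Every log2 change of the 7 genes was positive under all 23 alternatives. Of 161 such values, 132 stayed on their side of the threshold, 27 lost their call and 2 gained one. The alternative that summed Tgtp1 and Tgtp2 gave a single log2 change, 1.27, which is counted here once for each of these genes. Of the 7 genes, 4 were called as reported, 1 with no filter on low values, 0 (without cytokine tumour 6) to 4 with 1 tumour left out and 0 without cytokine tumours 6 and 7. The number of genes called was 1304 as reported, 846 with no filter, 2769 with library quality weights, 367 (without cytokine tumour 6) to 3238 (without cytokine tumour 10) with 1 tumour left out, 20 without cytokine tumours 6 and 7, and 2832 without cytokine tumour 10 and luciferase tumour 1. With no filter, more genes are tested (17505). Of the called genes, 71.0% were higher as reported, 60.7% after rescaling without the 50 most abundant genes, 56.1% without mitochondrial and receptor segment genes, 57.5% with weights, 50.8% (without cytokine tumour 10) to 87.5% (without cytokine tumour 6) with 1 tumour left out, and 95% without cytokine tumours 6 and 7. The median change of all genes tested, -0.18, was -0.03 with median-ratio scaling and -0.31 without mitochondrial and segment genes; relative to it, Igtp changed by 3.35 and Tgtp2 by 1.20. Apart from these, the cause of a lost call was not tested. List counts with tumours left out were added after the data were seen. Depth is unknown, so low values such as 0.408 TPM cannot be given an interval. No paired analysis was possible because the groups share no tumour number.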
